A study of Mus musculus with 19 samples.

Results

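Fos-positive astrocytes of the medial amygdala after seizure were defined as cells of the authors' astrocyte class, in the 2 Act-Seq seizure libraries, that held at least 1 Fos transcript. They were selected on that measured Fos count alone, within the class. They numbered 263 (134 in seizure 1 and 129 in seizure 2) of 911 seizure astrocytes, among 5807 astrocytes and 20679 cells of the first deposited table. The comparison cells were seizure astrocytes with 0 Fos transcripts, 648 in all. Another 27 astrocyte-class seizure cells that the authors also placed in their neuron table were left out. Transcripts were counted by Drop-seq, which catches single cells in droplets with barcoded beads and counts molecules by unique molecular identifiers (UMIs). Act-Seq is a dissociation protocol made to limit transcription while tissue is taken apart.

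All mice were male C57BL/6J, with no engineered allele named in the labels. The 2 Act-Seq seizure libraries came from mice of 9 weeks (seizure 1) and 8 weeks (seizure 2). Act-Seq was also run on naive mice (6 libraries, 8 weeks) and on immobilized mice (4 libraries, 8 or 9 weeks). Mice exposed to odors gave 4 libraries (8 or 9 weeks) and saline-injected controls 1 (8 weeks). Conventional dissociation gave 1 library of saline-injected controls and 1 seizure library, both from mice of 8 weeks. The means of inducing seizures, and the time from seizure to dissection, are not stated in the labels used. Nor do the labels tie each library to its own animals. P-values therefore reflect spread between libraries, estimated with help from other genes, and part of that spread can be technical.

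Fos encodes a partner in AP-1, a dimer of Fos and Jun proteins that binds DNA. It is an immediate early gene: its transcription starts within minutes of a calcium, cAMP or growth factor signal, with no new protein needed, and its transcript is soon degraded. Egr1, Junb, Nr4a1, Ier2 and Btg2 belong to the same early wave. Astrocytes carry receptors for glutamate, ATP, noradrenaline and peptides, and take up glutamate, GABA and potassium around active synapses. Gfap and Vim encode intermediate filaments that are high in white matter and surface astrocytes and rise further in reactive ones.

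Because Fos chose the cells, its own values are a description with no test. In seizure 1, 26.1% of astrocytes held a Fos UMI (95% exact binomial interval 22.3 to 30.1%), and in seizure 2, 32.5% (27.9 to 37.3%). Of oligodendrocytes, which serve as background, 2.88% held one in seizure 1 and 1.59% in seizure 2, although they were deeper (median 2118 and 2208 UMIs, against 1274 and 1384 in astrocytes). In naive libraries with at least 10 astrocytes the share was 2.75% ± 0.71 (SD, n = 5), so the seizure libraries stood an order of magnitude above them. After each cell was thinned to 1000 UMIs, which left out 151 and 109 shallower astrocytes, the shares were 23.4% and 24.7% after seizure and 1.76% ± 0.66 in naive libraries. All intervals cover counting error alone.

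Most responders held few Fos molecules. In seizure 1, 56 cells held 1 Fos UMI, 42 held 2 and 36 held 3 or more, up to 15. In seizure 2 the numbers were 75, 29 and 25, up to 21. The choice also depended on depth: when the astrocytes of seizure 1 were cut into 5 equal bins of total UMIs, 9.71% of the shallowest bin were Fos-positive and 45.6% of the deepest, and in seizure 2 21.2% and 45.0%. Each Fos-positive cell was therefore paired with the Fos-negative cell of its library nearest in total UMIs. This brought the median depths together, at 1642 against 1644 UMIs in seizure 1 and 1620 against 1625 in seizure 2. The deepest Fos-positive cells of seizure 1 had no equal (highest 15120 against 6911 UMIs), so the summed UMIs stayed apart, at 341687 against 275480. In seizure 2 they were 282067 against 264138. Levels below are CPM, a gene's UMIs divided by all UMIs of such a sum and scaled in the usual way.

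Both classes were astrocytes by their markers. The 32 listed astrocyte genes in the table summed to 128744 and 135103 CPM in Fos-positive cells and to 132216 and 139597 CPM in Fos-negative cells, and none was at 0 in any sum. The 15 neuron markers summed to 910 and 723 CPM in Fos-positive and 897 and 1018 CPM in Fos-negative cells, with Slc17a7 at 0 throughout. Microglia markers were higher beside Fos, at 419 and 489 CPM against 283 and 246 CPM, with 10 of the 12 markers higher in both libraries. Ependymal markers were 799 and 305 CPM against 265 and 265 CPM. As an alternative, the 5% of astrocytes richest in other classes' markers were left out. Of genes tested, 25 then passed, against 37 with these cells kept. All 36 of the genes called below that could be tested kept their direction. That fit held 126 and 123 of the Fos-positive cells, so called genes could hardly change sign. The part of these markers in the results below was not measured.

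Between Fos-positive and paired Fos-negative astrocytes, 5511 genes were tested with edgeR's quasi-likelihood test, with the library as a block, and 37 passed an adjusted p of 0.05. Of all genes tested, 0.472% were raised beside Fos (26 genes) and 0.2% lowered (11 genes). The raised genes fell into other immediate early genes, filament and surface genes led by Gfap and Myoc, and the Id1 and Id3 genes. Among the lowered genes were transporters of the astrocyte membrane. With 1 residual degree of freedom, the test borrowed its estimate of spread from all genes. Its prior degrees of freedom were infinite, so a gene's own spread between the 2 libraries had no weight in its p-value. The number of calls moved with that estimate. DESeq2 called 1 gene (Gfap, with 36 genes at an unadjusted p under 0.05). When pairs had to lie within 20% of each other in UMIs, edgeR called none (300 at an unadjusted p under 0.05). All 36 genes testable in that closer pairing and all 37 under DESeq2 kept their direction, at a median size of 0.886 and 1.01 times the first. DESeq2 used the same sums, and the closer pairing kept 123 and 127 of the Fos-positive cells. Called genes could therefore hardly change sign, and the kept directions are no separate evidence.

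**Figure D1:**
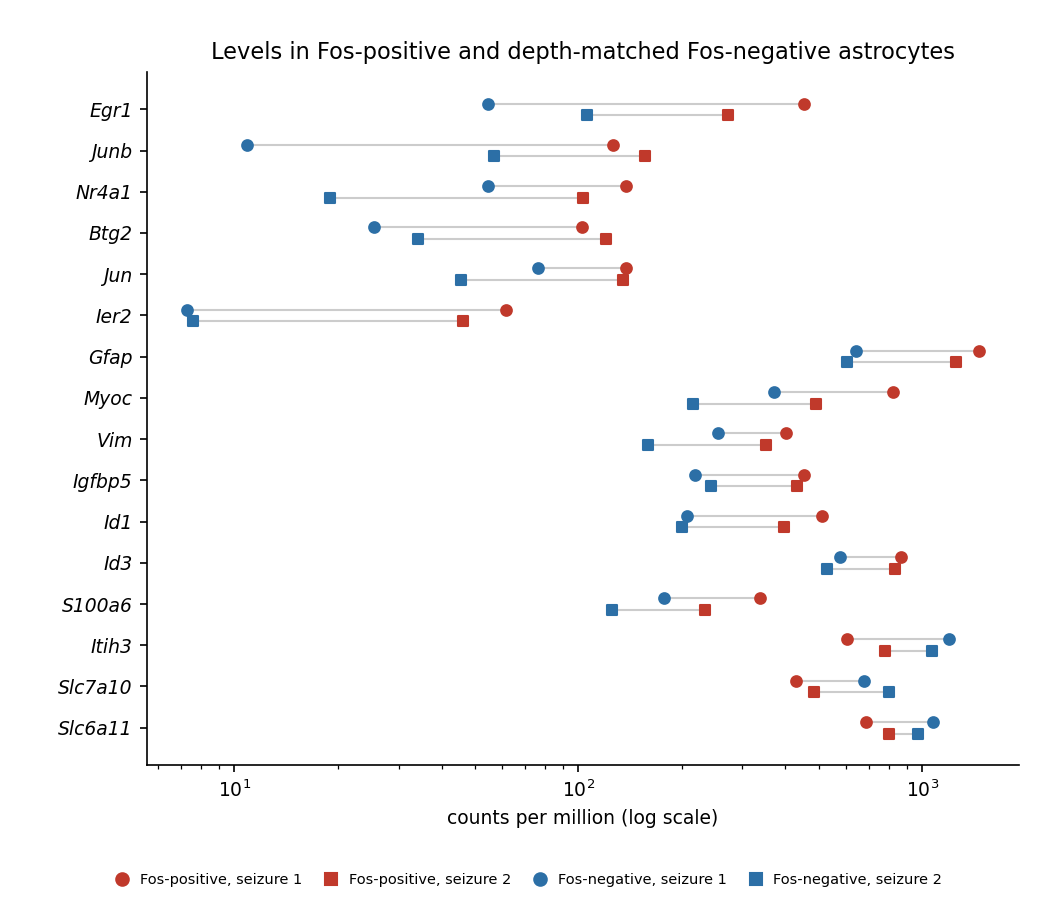
Levels of 16 genes, in CPM on a log axis, in the summed Fos-positive (red) and depth-matched Fos-negative (blue) astrocytes of seizure 1 (circles) and seizure 2 (squares), 1 point per sum. The 13 upper genes lie higher in the Fos-positive sum of both libraries and the 3 lower genes lie lower.

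Other immediate early genes were the steepest co-expressed set. Egr1, a zinc finger factor of the early wave, stood at 454 CPM in Fos-positive and 54.5 CPM in Fos-negative cells of seizure 1. In seizure 2 its levels were 273 and 106 CPM. Neither Fos-negative sum reached a Fos-positive one, and the log2 difference was 2.18 ± 0.25 (SE; edgeR adjusted p = 5.61e-15). In single cells this was 30.6% of Fos-positive cells of seizure 1 with an Egr1 UMI against 8.21% of paired cells, and 24.0% against 13.2% in seizure 2. Oligodendrocytes gave 6.47% and 0.794%, so the Fos-negative share of seizure 1 lay near background.

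Junb, an AP-1 partner of Fos, rose from 10.9 to 126 CPM in seizure 1 and from 56.8 to 156 CPM in seizure 2 (log2 2.09 ± 0.36, edgeR adjusted p = 5.97e-06). Jun, another partner, differed less, by 1.15 ± 0.32 (adjusted p = 0.0426 in edgeR). Jund, the member held at a steady level in most cells, had a difference of 0.12 ± 0.28 and did not pass. Nr4a1, an orphan nuclear receptor of the early wave, stood at 138 and 103 CPM against 54.5 and 18.9 CPM (1.70 ± 0.36, edgeR adjusted p = 0.000971). The Fos-positive sums of these AP-1 and Nr4a1 genes lay above both Fos-negative sums. Ier2, a small nuclear early response protein, was the sparsest of them, with 21 and 13 UMIs against 2 and 2. Btg2, which slows cell division, stood at 102 and 121 CPM against 25.4 and 34.1 CPM.

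Of the list of immediate early factors, 8 of 27 in the table passed the filter on low counts and 5 of these rose (Jun, Junb, Egr1, Nr4a1 and Ier2), with none lowered. Their median log2 difference was 1.43, against 0.00 over all genes tested. The filter used these same sums, so a sparse member could pass through high counts in the Fos-positive sums. The median and the calls therefore describe the tested members alone, here and in the lists below. Of the 26 members other than Fos, tested or not, 16 were higher beside Fos in both libraries and 1 was lower in both. Of the list of rapid feedback genes, which encode the phosphatases, RNA decay factors and secreted proteins of the same wave, 21 of 46 were tested and 1, Btg2, rose. Dusp1, a phosphatase of MAP kinases, had a difference of 1.26 ± 0.42 (edgeR adjusted p = 0.167), and Zfp36, an RNA decay factor, 1.36 ± 0.45 (adjusted p = 0.166 in edgeR). Cyr61, a secreted matrix protein, had 0.68 ± 0.21 (edgeR adjusted p = 0.123). Fosb was too sparse to be tested, at 11.7 and 17.7 CPM against 3.63 and 11.4 CPM.

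The promoters of early genes are known for the cAMP response element TGACGTCA and its core TGACG. The 250 bases before the RefSeq gene start (GRCm38.p6, both strands) are shown for Fos and 3 genes raised beside it, for Arl4d and Dio2, which were raised after seizure without Fos (below), and for Myoc as a raised gene of another kind. Capitals mark TGACG or its reverse complement, 5′ to 3′ on the gene's strand.
Fos: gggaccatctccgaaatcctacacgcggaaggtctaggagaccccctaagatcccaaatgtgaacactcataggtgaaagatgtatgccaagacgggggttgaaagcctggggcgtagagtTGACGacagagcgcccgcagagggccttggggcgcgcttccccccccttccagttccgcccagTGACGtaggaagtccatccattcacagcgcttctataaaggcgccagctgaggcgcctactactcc
Junb: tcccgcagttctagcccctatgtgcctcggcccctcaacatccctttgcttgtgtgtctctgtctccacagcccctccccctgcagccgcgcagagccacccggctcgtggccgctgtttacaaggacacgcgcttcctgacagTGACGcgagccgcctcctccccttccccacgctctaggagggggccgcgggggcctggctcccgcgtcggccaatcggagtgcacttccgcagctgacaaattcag
Nr4a1: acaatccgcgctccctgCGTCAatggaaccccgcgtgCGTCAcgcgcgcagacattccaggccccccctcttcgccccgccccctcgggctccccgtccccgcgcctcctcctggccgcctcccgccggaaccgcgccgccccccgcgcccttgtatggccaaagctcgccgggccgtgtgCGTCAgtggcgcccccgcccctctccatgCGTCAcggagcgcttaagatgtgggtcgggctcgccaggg
Btg2: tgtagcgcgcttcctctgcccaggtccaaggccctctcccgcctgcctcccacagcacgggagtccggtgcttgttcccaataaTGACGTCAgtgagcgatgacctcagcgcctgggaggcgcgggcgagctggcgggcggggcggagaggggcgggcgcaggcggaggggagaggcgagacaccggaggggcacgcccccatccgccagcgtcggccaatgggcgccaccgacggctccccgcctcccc
Arl4d: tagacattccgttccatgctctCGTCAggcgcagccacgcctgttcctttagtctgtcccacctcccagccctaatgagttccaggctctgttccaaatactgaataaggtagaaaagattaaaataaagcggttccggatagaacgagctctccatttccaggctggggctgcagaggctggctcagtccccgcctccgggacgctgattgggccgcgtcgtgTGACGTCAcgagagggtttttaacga
Dio2: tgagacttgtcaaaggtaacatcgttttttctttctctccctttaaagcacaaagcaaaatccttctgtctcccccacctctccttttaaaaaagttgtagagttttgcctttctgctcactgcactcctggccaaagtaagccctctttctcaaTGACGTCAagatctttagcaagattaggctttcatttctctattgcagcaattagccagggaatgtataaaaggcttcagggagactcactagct
Myoc: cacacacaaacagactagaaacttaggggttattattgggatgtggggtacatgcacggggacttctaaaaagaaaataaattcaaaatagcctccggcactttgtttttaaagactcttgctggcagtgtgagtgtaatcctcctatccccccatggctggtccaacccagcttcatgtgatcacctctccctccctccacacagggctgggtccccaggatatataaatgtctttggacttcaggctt
Fos (chr12:85473640-85473889, plus strand) held 2 matches, starting 129 and 66 bases before the start, and Junb (chr8:84978749-84978998, minus strand) 1. Nr4a1 (chr15:101266596-101266845, plus strand) held 4, all on the opposite strand. In Btg2 (chr1:134079156-134079405, minus strand), Arl4d (chr11:101665291-101665540, plus strand) and Dio2 (chr12:90739039-90739288, minus strand) a full TGACGTCA was present, which holds TGACG on each strand. Arl4d held another TGACG, 228 bases before the start. Myoc (chr1:162638900-162639149, plus strand) held none, nor did Gfap, Vim, Igfbp5, S100a6 or Jun, while Id3 held 1. Other genes raised in Fos-negative seizure cells were mixed: Txnip, Cdkn1a and Nfkbia held none. Tsc22d3 held TGACG in 1 of its 3 promoters, Per1 in each of its 2, and Dusp1 held a full TGACGTCA. Of all 32851 promoter windows of this length, 17.8% held TGACG and 1.55% TGACGTCA. The AP-1 letters TGANTCA, found in 6.75% of windows, were in none of the windows named here, and neither was the CArG box (1.47%). Sites farther than 250 bases before the start were not searched, and Egr1 and Ier2 had no promoter entry. All genes looked up were chosen after their values were seen, and a match is a description of letters, not of binding.

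Egr1 and Ier2 were ordered by the number of Fos molecules. In seizure 1, Egr1 stood at 71.7 CPM in all cells with 0 Fos UMIs, 108 CPM with 1, 221 CPM with 2 and 1051 CPM with 3 or more. In seizure 2 the same levels were 103, 113, 139 and 749 CPM. Cells just inside the threshold, with 1 Fos UMI, thus lay close to cells just outside it for Egr1 in seizure 2, and cells with 3 or more lay far above in both libraries. Ier2 followed the same order, from 3.58 and 6.71 CPM at 0 to 134 and 147 CPM at 3 or more. Junb stood at 240.5 and 411 CPM at 3 or more, against 16.1 and 44.7 CPM at 0. These levels have no test, and cells with more Fos UMIs were also deeper (median 2193 and 2103 UMIs at 3 or more, against 1188 and 1280 at 0).

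A second group held genes of filament-rich astrocytes. Gfap (chr11:102887336-102900912, minus strand; GENCODE M21, GRCm38), the filament protein that defines these cells, had the smallest p of all genes. It stood at 1460 CPM in Fos-positive and 643 CPM in Fos-negative cells of seizure 1, and at 1255 and 602 CPM in seizure 2. The 2 libraries gave nearly the same difference, and the fitted one was 1.13 ± 0.12 (edgeR adjusted p = 9.33e-17); it passed in 13 of 15 other tested settings, more than any other gene. Myoc (chr1:162639155-162649693, plus strand), a secreted protein of surface astrocytes, stood at 822 and 489 CPM against 370 and 216 CPM (1.17 ± 0.16, edgeR adjusted p = 1.57e-09). Fewer cells carried it: 16.4% and 17.8% of Fos-positive cells held a Myoc UMI, against 5.22% and 7.75% of paired cells, and oligodendrocytes held none. Vim, the other filament gene, rose by 0.87 ± 0.20 and Igfbp5, a secreted binding protein for insulin-like growth factors, by 0.95 ± 0.19. S100a6, a calcium-binding protein, rose by 0.91 ± 0.23 and Sema3b, a secreted guidance cue, by 2.24 ± 0.55 from few UMIs (19 and 20 against 5 and 2).

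Most reactive astrocyte genes were too sparse to be tested. Of the list of reactive astrocyte genes, 6 of 27 in the table were tested, 2 rose (Gfap and Vim) and none fell. C4b, a complement component, had a difference of 0.87 ± 0.32 (edgeR adjusted p = 0.283), and Stat3, a factor that reactive astrocytes depend on, had 0.02 ± 0.30. At 3 or more Fos UMIs, Gfap stood at 1888 and 3071 CPM and Myoc at 1149 and 1543 CPM. With 1 Fos UMI the libraries differed: Gfap stood at 1688 CPM in seizure 1 and at 577 CPM in seizure 2.

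The cells were also split by Gfap. Among astrocytes with no Gfap UMI, Egr1 stood at 283 CPM with Fos and 41.6 CPM without in seizure 1, and at 115 and 77.2 CPM in seizure 2. Among astrocytes with a Gfap UMI it stood at 590 and 138 CPM in seizure 1 and at 530 and 161 CPM in seizure 2. Egr1 was therefore higher beside Fos in both strata of both libraries, and highest where a Fos and a Gfap UMI were found in 1 cell. Vim was higher beside Fos in both strata too, at 119 and 40.1 CPM against 39.0 and 9.65 CPM in cells with no Gfap UMI. Id1 was not: it stood at 132 and 103 CPM in Fos-positive cells with no Gfap UMI, against 104 and 122 CPM in Fos-negative ones. Cells with a Gfap UMI were deeper than the rest (median 1645 and 1936 UMIs against 1179 and 1270), and these strata have no test.

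**Figure D2:**
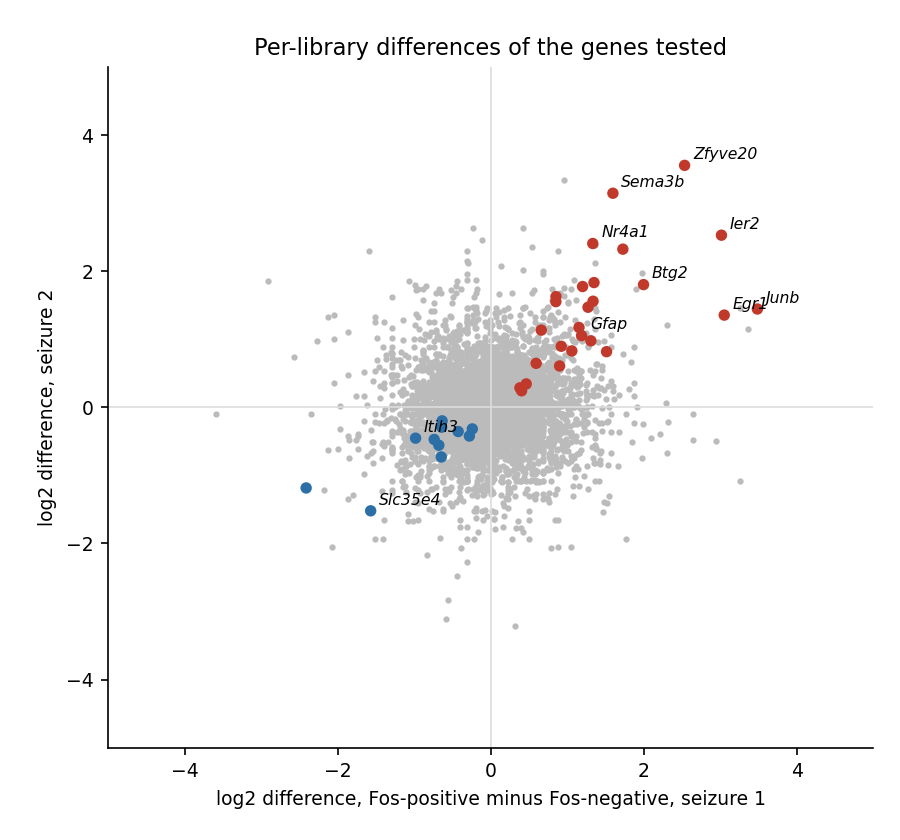
Log2 difference between Fos-positive and paired Fos-negative astrocytes in seizure 1 (x axis) and seizure 2 (y axis), 1 point per tested gene, with raised calls in red, lowered calls in blue and other genes in grey. Calls lie in the quadrants where both libraries agree in sign, and 4 genes fall outside the axes, which end at 5.

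Id1 and Id3, inhibitors of DNA-binding factors that answer to BMP signals, rose beside Fos. Id1 stood at 512 and 397 CPM against 207 and 201 CPM (1.16 ± 0.19, edgeR adjusted p = 1.44e-06), and Id3 at 869 and 833 CPM against 577 and 530 CPM (0.62 ± 0.13, adjusted p = 0.00137 in edgeR). Their relatives Id2 and Id4 had differences of -0.08 ± 0.10 and 0.24 ± 0.12 and did not pass. Hes5, the Notch target of the same list, had 0.07 ± 0.19. Of this list of Notch and stem-cell genes, 19 of 21 were tested, 2 rose and none fell.

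Several lowered genes encode membrane transporters, channels or secreted proteins of astrocytes. Slc7a10, a transporter of serine and glycine, stood at 430 and 486 CPM in Fos-positive cells against 675 and 803 CPM (-0.69 ± 0.14, edgeR adjusted p = 0.000686). Slc6a11, the GABA transporter GAT-3, had -0.47 ± 0.12. Both were lower beside Fos in each library. Gria2, a glutamate receptor subunit, had -0.39 ± 0.11. Itih3, a secreted binding protein for hyaluronan, had the smallest p of the lowered genes, at 603 and 780 CPM against 1194 and 1064 CPM (-0.72 ± 0.12). Malat1, a nuclear RNA that is high in every class, had -0.28 ± 0.06. Of the transmitter receptor and calcium list, 18 of 27 were tested, 2 fell (Gria2 and Slc6a11) and none rose, with a median of -0.37. Of the astrocyte identity list all 32 in the table were tested, 1 rose (Gfap), 2 fell (Slc6a11 among them), and the median was -0.10. The lists of astrocyte metabolism (25 tested) and of heat shock and dissociation genes (15 tested) had no call in either direction.

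The genes found beside Fos could be set against the difference between seizure and naive astrocytes without Fos. The saline-injected controls were not in this fit, so seizure cannot be told apart here from injection or handling. All Fos-negative astrocytes of a library were summed and the 2 seizure libraries compared with 5 naive libraries, in a fit of 9980 genes that also held the immobilization and odor libraries. These seizure sums share cells with the Fos-negative sums above. Of the genes tested, 0.291% were raised (29 genes) and 0.0501% lowered (5 genes) by edgeR at an adjusted p of 0.05. The count fell to 13 without seizure replicate 2, to 21 without seizure replicate 1, and to 19 with age as a covariate, since seizure 1 came from older mice. In all 3, each of the 34 genes kept its direction.

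Egr1, Nr4a1 and Junb were higher in seizure than in naive cells with no Fos UMI as well. Egr1 stood at 4.46 CPM ± 2.95 (SD, n = 5) in naive cells and at 71.7 and 103 CPM in Fos-negative seizure cells (log2 4.24 ± 0.43, edgeR adjusted p = 1.22e-09). Nr4a1 stood at 1.82 CPM ± 1.55 against 44.8 and 24.6 CPM, and Junb at 3.68 CPM ± 4.32 against 16.1 and 44.7 CPM. No naive library reached a seizure library for these 3 genes. A cell with 0 Fos UMIs is not shown to lack Fos transcripts: at these depths a cell with few of them can yield none. Fos-positive cells stood higher again, so that Egr1, Nr4a1 and Junb formed 3 levels.

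Another set was raised after seizure and passed no test between Fos-positive and Fos-negative cells. Dio2, which converts thyroid hormone to its active form, stood at 81.8 CPM ± 22.5 in naive cells, 333 and 425 CPM in Fos-negative seizure cells (2.17 ± 0.18, edgeR adjusted p = 6.65e-12), and 272 and 291 CPM in Fos-positive ones. Its difference between Fos classes was -0.28 ± 0.19 (adjusted p = 0.747 in edgeR). Tsc22d3, a target of the glucocorticoid receptor, stood at 323 CPM ± 148 in naive cells and at 789 and 1317 CPM in Fos-negative seizure cells. Arl4d, a small GTPase, had 0 UMIs in the naive libraries and 41.2 and 42.5 CPM in Fos-negative seizure cells, at least 43.2-fold higher than the floor of 3 counts over the naive group. Beside Fos it stood at 17.6 and 39.0 CPM, not above the cells without it. Nfkbia, the inhibitor of NF-kappaB, rose by 1.59 ± 0.20, and Cdkn1a, a cell cycle inhibitor, by 2.48 ± 0.39. High levels of these genes were also found without seizure. In Fos-negative cells of the 4 immobilization libraries, Dio2 stood at 287 CPM ± 87.8 (SD), Arl4d at 46.9 CPM ± 10.7 and Tsc22d3 at 1323 CPM ± 227. Nfkbia stood there at 507 CPM ± 21.5 and Cdkn1a at 100.1 CPM ± 48.4.

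Counted by list, 7 of 19 tested glucocorticoid-responsive genes were raised in Fos-negative seizure cells (median log2 0.89, against -0.01 over all genes), while 0 of 13 passed beside Fos in either direction (median -0.23). Of the rapid feedback genes 9 of 31 were raised, and of the immediate early factors 3 of 11 were raised and 1, Ier5, lowered. Gfap, Myoc and Vim passed beside Fos and not in this test: Gfap stood at 485 CPM ± 107 in naive cells and 552 and 458 CPM in Fos-negative seizure cells (0.09 ± 0.20), and 0 of the 11 reactive genes tested passed. Id3 fell in Fos-negative seizure cells, from 911 CPM ± 73.5 to 575 and 487 CPM (-0.76 ± 0.16, edgeR adjusted p = 0.0128), and stood near its naive level in Fos-positive ones. Hes5 fell from 860 CPM ± 132 to 375 and 239 CPM (-1.47 ± 0.19), and was as low beside Fos, at 375 and 252 CPM.

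**Figure D3:**
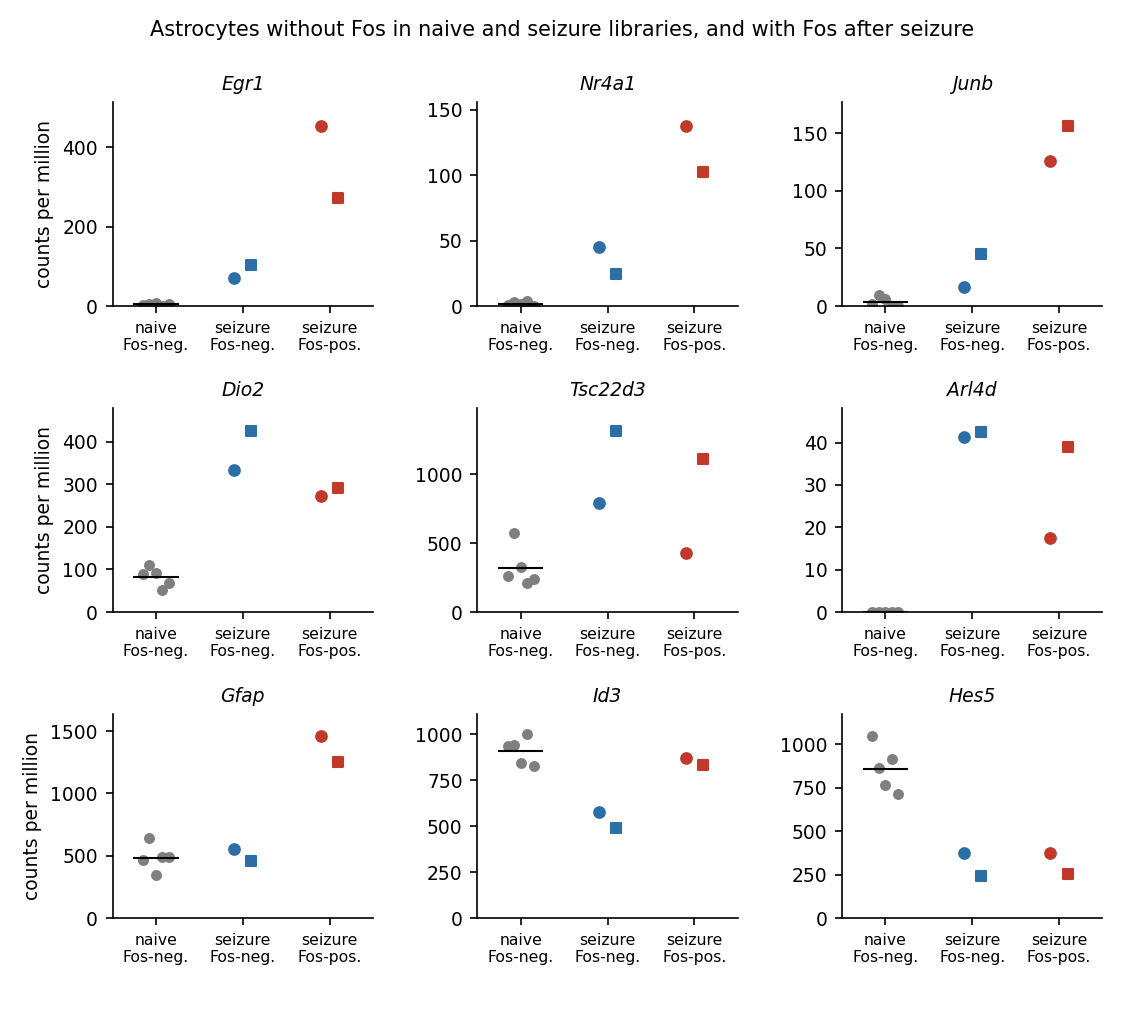
Levels in CPM, on linear axes from 0, of 9 genes in Fos-negative astrocytes of 5 naive libraries (grey, with their mean as a line), and in all Fos-negative (blue) and Fos-positive (red) astrocytes of seizure 1 (circles) and seizure 2 (squares). Egr1, Nr4a1 and Junb stand at 3 levels, Dio2 and Arl4d are raised in both seizure classes, Gfap is high beside Fos and Hes5 is low in both.

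The few Fos-positive astrocytes of other Act-Seq libraries gave the same measure in cells that the choice above did not use. In 7 libraries (naive 1 to 3, immobilization 1 to 3 and odor 3) 11 to 16 Fos-positive astrocytes were found, and each was paired as before. Of 1141 genes tested, 1.23% were raised (14 genes) and 0.0876% lowered (1 gene) by edgeR at an adjusted p of 0.05. The count ran from 9 (without naive 3) to 27 (without immobilization 1), and DESeq2 called 5.

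The filament group recurred in these cells. Gfap stood at 1198 to 3341 CPM (median 2161) in Fos-positive and at 120 to 1473 CPM (median 627) in paired Fos-negative cells, and was higher beside Fos in 6 of 7 libraries (log2 1.75 ± 0.25, edgeR adjusted p = 5.94e-06). Myoc was higher in 7 of 7 (2.17 ± 0.29), Vim in 6 of 7 (2.10 ± 0.32) and Igfbp5 in 5 of 7 (1.32 ± 0.27). Slc38a1, a glutamine transporter, was higher in 7 of 7 (2.62 ± 0.46). These 5 were called after seizure too: 13.5% of the 37 seizure calls and 33.3% of the 15 calls here, each in the same direction. Of the 37, 23 were tested here and 22 had the same sign. The share with the same sign over all genes tested in both sets was not measured, so this count has no background. Further genes raised here were B2m, the light chain of MHC class I, and Cidea, Padi2 and Aebp1, while Nkx6-2, an oligodendrocyte factor, was lowered in 7 of 7 (-1.26 ± 0.25).

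The early genes were too sparse here to be tested. Junb gave 14 UMIs over the 14 sums and was higher beside Fos in 6 libraries and lower in none, at 38.6 CPM ± 25.3 against 9.18 CPM ± 15.9 (SD, n = 7). Jun was higher in 7 of 7, at 117 CPM ± 66.7 against 58.1 CPM ± 54.6. Egr1 gave 6 UMIs, at 9.39 CPM ± 16.5 against 8.57 CPM ± 22.7, so no difference was detectable at this depth.

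Conventional dissociation gave early genes beside Fos without the filament group. Among cells of astrocyte-like clusters in the table that compares dissociations, 40.0% held a Fos UMI in the conventional saline library (35.3 to 44.7%) and 11.7% in the conventional seizure library (8.26 to 16.0%), against 3.74% in the Act-Seq saline library (2.36 to 5.61%). Over these 3 libraries (173, 34 and 22 pairs) 1690 genes were tested, of which 0.178% were raised (Egr1, Junb and Sat1) and 0.0592% lowered (Apoe). Without the Act-Seq saline library 12 genes were called, without either conventional library none (70 and 94 at an unadjusted p under 0.05), and DESeq2 called none (15 at an unadjusted p under 0.05). Egr1 stood at 514, 219 and 45.8 CPM beside Fos against 35.4, 28.0 and 15.5 CPM, in the order above (3.52 ± 0.44, edgeR adjusted p = 1.99e-10). Junb stood at 402, 246 and 15.3 CPM against 51.1, 42.0 and 0 CPM (2.87 ± 0.44).

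Gfap split these libraries by dissociation. In the conventional libraries it stood at 176 and 301 CPM beside Fos, below the 432 and 673 CPM of paired Fos-negative cells. In the Act-Seq saline library it stood at 1512 against 587 CPM. Over the 3 libraries the difference was -0.29 ± 0.22 and did not pass. Myoc behaved alike, at 42.2 CPM against 216 CPM in the conventional saline library, lower beside Fos in the conventional seizure library too, and at 1191 against 247 CPM in the Act-Seq one. Of the 37 seizure calls, 23 were tested here and 9 had the same sign, again with no share over all genes beside it. Whether the difference itself depends on dissociation was not tested.

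**Figure D4:**
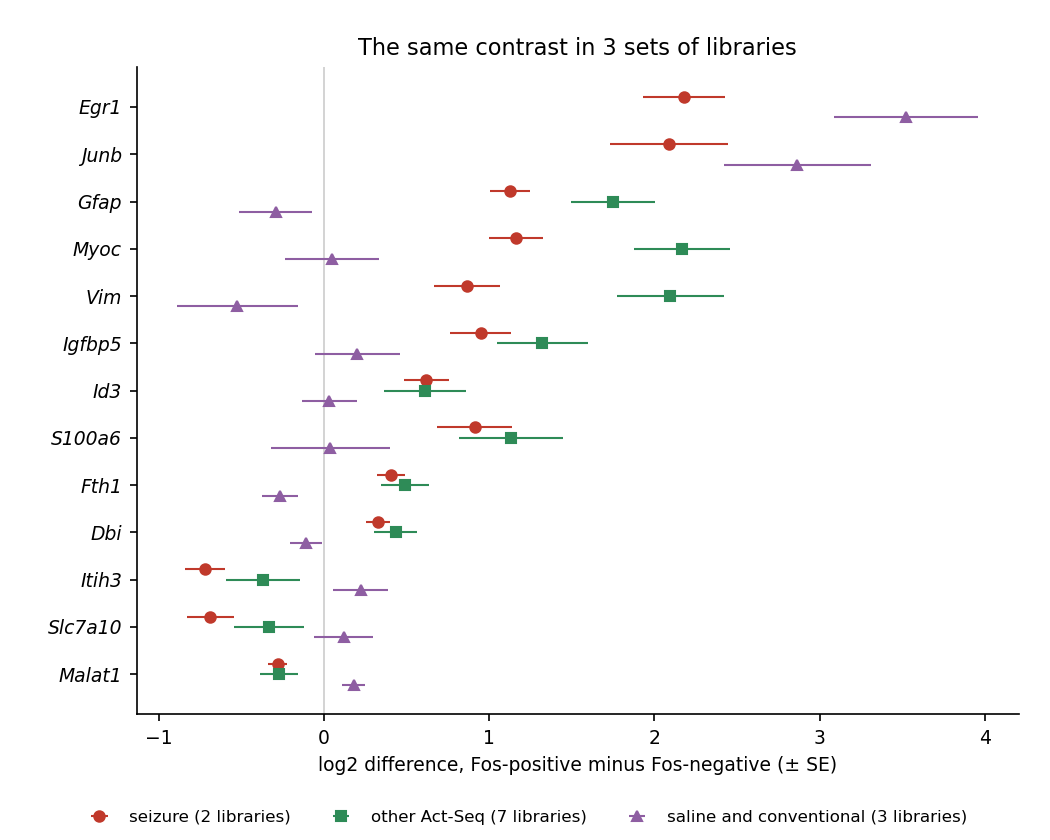
Log2 difference between Fos-positive and paired Fos-negative astrocytes, with the standard error as a bar, for 13 genes in the 2 seizure libraries (circles), 7 other Act-Seq libraries (squares; Egr1 and Junb were too sparse) and 3 saline or conventional libraries (triangles). Gfap, Myoc and Vim lie above 0 in both Act-Seq sets, and Egr1 and Junb lie above 0 in both sets where they were tested.

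The dissociation table also showed where Fos-positive cells lay among astrocyte-like clusters, which were formed without Fos or other early genes. Cluster 9 (162 cells), led by Myoc and Gfap, held Fos UMIs in 57.9% of its 38 cells in seizure 1 and in 60.6% of its 33 cells in seizure 2. Cluster 1 (1634 cells, led by Fzd2 and F3) held them in 22.8% and 29.4%, and cluster 7 (342 cells, deeper, led by Acsbg1 and Aldoc) in 39.4% and 39.2%. After thinning to 1000 UMIs cluster 9 stood at 43.8% and 51.7%, cluster 1 at 22.8% and 19.6%, and cluster 7 at 13.8% and 16.5%. The seizure cells are those of the first table, so these shares restate the Gfap and Myoc differences by cluster. Of the 188 seizure cells of cluster 7, however, only 141 were astrocytes as defined for the first table. For cluster 1 it was 560 of 568 cells, and for cluster 9 it was 71 of 71. In the Act-Seq saline library, whose cells are separate, 17.0% of 53 cluster 9 cells held a Fos UMI (8.07 to 29.8%) against 1.46% of 411 cluster 1 cells (0.538 to 3.15%). In the conventional saline library the order was turned, with 18.2% of 11 cells against 40.6% of 406, at intervals of 2.28 to 51.8% and 35.8 to 45.6% that overlap.

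**Figure D5:**
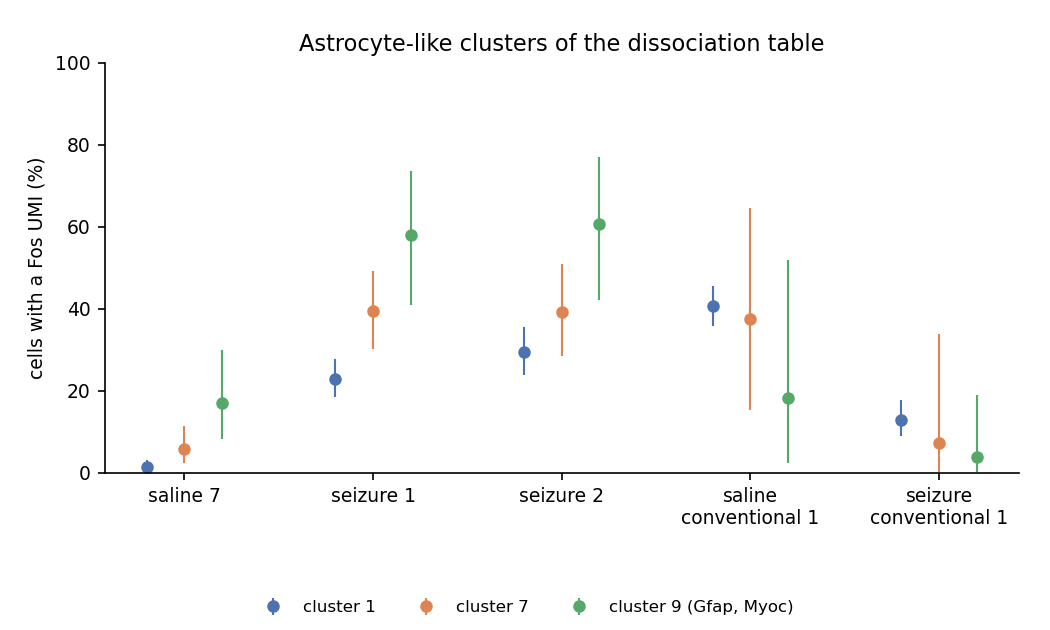
Share of cells with a Fos UMI, in percent, in 3 astrocyte-like clusters of each of 5 libraries, with exact 95% binomial intervals as bars. Cluster 9 stands highest in the 3 Act-Seq libraries (saline 7, seizure 1 and seizure 2) and not in the conventional ones, where it held 11 and 27 cells.

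Neurons of the same 2 libraries were measured in the same way, with 78 and 36 pairs. Of the early genes beside Fos, Junb had 2.19 ± 0.42 (edgeR adjusted p = 0.0596) in neurons and 2.09 ± 0.36 in astrocytes, and Egr1 1.13 ± 0.31 (adjusted p = 0.644 in edgeR) and 2.18 ± 0.25. The neuron fit of 4134 genes called 1 gene, Snhg11, which was lowered. A direct test of the difference between the classes over 6658 genes called 1 gene with edgeR: 0% were raised and 0.015% lowered in astrocytes relative to neurons. That gene was Itih3, whose difference beside Fos was -0.72 ± 0.12 in astrocytes and 0.54 ± 0.21 in neurons, a gap of -1.26 ± 0.25 (adjusted p = 0.036). DESeq2 called none in that test (22 at an unadjusted p under 0.05). For Egr1 the gap was 1.03 ± 0.44 and for Junb -0.11 ± 0.66, so neither was shown to differ between astrocytes and neurons. Precursors (15 and 11 pairs) gave no call among 431 genes, with 21 at an unadjusted p under 0.05, and endothelial cells (11 and 16 pairs) gave 1, Apod, among 626. Snhg11 and Apod were taken from these calls after their values were seen.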

How the data were processed

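The authors deposited 3 tables of UMI counts, not normalized, with genes in rows and cells in columns; per the submitters' processing notes, bcl2fastq (2.17.1.14) made the base calls and STAR (2.5.0a) did the alignment, on build mm10. Neither the labels nor the headers name a counting tool, a strand setting or a cell filter, and genes that overlap may share counts. Classes, and the neurons of the second table, are the authors'. Seizure libraries held 2154 and 1412 cells and 3629289 and 2312881 UMIs; they shared 0 barcodes, and no library pair shared more than 2.

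The cells, gene lists and tests were chosen with earlier results of these data known. Counts without Fos were summed per library and Fos class, after 1 to 1 pairing within a library on total UMIs, and tested with edgeR 4.0.16 in R 4.3.3 (TMM, filterByExpr, quasi-likelihood F-test, library as block, Benjamini-Hochberg over all genes tested); DESeq2 1.42.0 served as an alternative. The block needs no number from the labels, since both sums come from 1 library. Other Act-Seq libraries needed at least 10 Fos-positive astrocytes. The SE is the log2 difference divided by the root of F. Named genes were up to 30 calls per test by p (filled to 20, where under 10 passed, by p among genes of 1 sign in each library with at least 20 UMIs), called list members, up to 4 members per list with the highest level, and 9 genes known from earlier results; Pkp4, Vezt and Eif5b passed beyond the first 30.

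The third table was clustered by the Leiden method at resolution 0.8 (scanpy 1.11.5, leidenalg 0.10.2), on 15 neighbours in 30 components of 2000 variable genes, without early and stress genes, and astrocyte-like clusters were named from fixed markers, each with at least 3 over 2-fold. Its seizure cells matched cells of the first table by counts (r of at least 0.999) but not by barcode; by that link the astrocyte-like clusters held 96.9% of astrocyte-class cells. Scrublet called 0.836% and 0.496% of seizure cells; no cell was removed, and removal of the top 5% of scores was tried. The fits were tested on simulated counts. Cells of the saline library appear in the third table alone. Promoters came from RefSeq (GRCm38.p6), which held 22 of 26 genes looked up. 1 of the genes called beside Fos is not reported here by name.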

Additional observations from a re-analysis of the deposited data

Results flagged for a closer look

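Immobilization 4 stood apart from the other 3 immobilization libraries in the share of astrocytes with a Fos UMI: 0 of 50 cells, which allows a share of up to 6.00%, against 2.41 to 2.87% in the others. Its gap took up 0.838 of the range of the group, above Dixon's critical value for 4 samples. In all, 68 groups of libraries were looked at in this way and 1 stood apart, while chance alone flags about 1 in 20.

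The difference beside Fos was not the same in astrocytes and neurons for Itih3, by a test of that difference: the gap was -1.26 on the log2 scale.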

How the results depend on the processing

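Every called gene that could be tested kept its direction under the alternatives run, which share cells with the first fits and so are no separate evidence. Some log2 differences that passed no test crossed 0: beside Fos after seizure, Dio2 ran from -0.43 to 0.08 and Hes5 from -0.17 to 0.15, and the gap between astrocytes and neurons for Junb ran from -0.12 to 0.82. After seizure, 37 genes were called beside Fos; the number was 1 with DESeq2, 2 with no replicate block, 78 with all Fos-negative cells, 84 with 2 Fos-negative cells per Fos-positive cell, 24 when cells were paired by detected genes, 9 after thinning and 4 in 1 fit over all libraries. It was 0 with pairs within 20% of total UMIs and 0 in cells under 3000 UMIs (300 and 168 at an unadjusted p under 0.05), both chosen after seeing the data. In other Act-Seq libraries, 15 calls became 5 with DESeq2, 2 with no replicate block, 370 with all Fos-negative cells, where the median of all genes moved to -0.24, and 40 in libraries with at least 5 Fos-positive astrocytes, chosen after seeing the data; leaving out 1 library gave 9 to 27. In the dissociation table, 4 calls became 0 with DESeq2, 7 with no filter on low counts, 0 with no replicate block and 2 with all Fos-negative cells, and leaving out 1 library gave 0 to 12. For Fos-negative seizure against naive cells, 34 calls became 22 with DESeq2 and 19 with age, and leaving out 1 library gave 13 to 41. Same-numbered libraries showed no shared deviation in these sums (median r 0.02 over 18 pairs, across 9454 genes), and the numbers were not used as pairs. Groups this small, each centred on its own mean, cannot exclude a shared day or batch. A fit with the replicate block, added after seeing the data, called 28. The 1 call between astrocytes and neurons became 0 with DESeq2 and 4 with all Fos-negative cells. The mean share of Fos-positive astrocytes, 29.3%, became 24.0% after thinning and 26.1 to 32.5% with 1 library left out. The cause of these moves was not tested. Depth limits sparse calls: Ier2 rested on 2 UMIs in each Fos-negative sum, and Sema3b on 5 and 2.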
